A study of Homo sapiens with 54 samples.

Results

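Among cells that formed during macrophage differentiation on a porous 3D scaffold, a small population carried the transcripts of azurophil granules, the first storage granules that a neutrophil makes. The cells came from H1, an established human pluripotent stem cell line, and were profiled as droplet single-cell RNA, with 1 library for day 7 of 3D culture, 1 for day 9 and 1 for day 12. A granulocyte-type cell was a cell with at least 1000 unique molecular identifiers (UMIs, each standing for 1 captured transcript), at least 500 genes and under 15% mitochondrial counts that held at least 10 UMIs of MPO, AZU1, ELANE and PRTN3 together. It also had to hold fewer than 5 UMIs of the macrophage genes CD14, CD163, C1QA, C1QB and C1QC together, and fewer than 8 of HDC, CPA3 and CLC, which mark mast cells, basophils and eosinophils. Of 26455 cells that passed the quality limits, 592 were granulocyte-type cells. Day 7 gave 0 of 6767 cells, which allows a share of up to 0.0443% by a limit of 3 counts of the total. Day 9 gave 165 of 11727 cells, a share of 1.41% (95% exact Clopper-Pearson interval 1.20 to 1.64%). Day 12 gave 427 of 7961 cells, a share of 5.36% (4.88 to 5.88%). There was 1 library per day, so every interval covers counting error only and no difference between days was tested.

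The bulk RNA libraries of the series took no part in choosing the cells and were used to follow their genes. They comprised 3D culture at day 12 (4 libraries), 3D culture at days 16, 19 and 23 without FBS (3 libraries per day) and with FBS in the label (3 per day), further 3D libraries labelled SP6A (2), SP14 (2) and E. coli (2), and flat 2D culture at day 12 (4 libraries). All were labelled macrophages of the H1 line, with the macrophage genes CD14 and C1QA at means of 954 and 773 TPM in 3D and 516 and 712 TPM in 2D at day 12, and the series set macrophages made in the 3D niche beside macrophages made in 2D. Nothing in the labels says that replicates came from separate cultures, so p-values measure the spread between these libraries, which may be technical.

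Azurophil granules are filled at the promyelocyte stage, early in neutrophil maturation, and later store enzymes that kill ingested microbes. MPO is a haem peroxidase that makes hypochlorous acid, PRTN3 (proteinase 3), ELANE (neutrophil elastase) and CTSG (cathepsin G) are serine proteases, and AZU1 (azurocidin) is a protease relative that has lost its catalytic activity and kills bacteria by other means. Specific and gelatinase granules, with LTF and MMP8 among their proteins, are filled at later stages. Early monocyte-committed progenitors also transcribe MPO and several of the proteases, so these genes mark the branch shared by neutrophils and monocytes as well as the neutrophil line itself.

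AZU1, PRTN3 and ELANE lie side by side on chromosome 19 and MPO on chromosome 17. In the RefSeq annotation of GRCh38.p14, AZU1 spans chr19:827837-832018, PRTN3 chr19:840999-848175 and ELANE chr19:852303-856243, all on the plus strand, with 8980 bases between AZU1 and PRTN3 and 4127 between PRTN3 and ELANE. The gene after ELANE is CFD, the serine protease complement factor D, 3420 bases further on. MPO spans chr17:58269855-58280935. The 250 bases before the start of AZU1 and of PRTN3, neighbours that were both expressed in these cells, are shown. No promoter sequence was found for MPO and ELANE. Both are given on the plus strand, which is the gene strand, from RefSeq on GRCh38.p14, as chr19:827587-827836 for AZU1 and chr19:840749-840998 for PRTN3. Capitals mark the motif matches named after the sequences.
AZU1: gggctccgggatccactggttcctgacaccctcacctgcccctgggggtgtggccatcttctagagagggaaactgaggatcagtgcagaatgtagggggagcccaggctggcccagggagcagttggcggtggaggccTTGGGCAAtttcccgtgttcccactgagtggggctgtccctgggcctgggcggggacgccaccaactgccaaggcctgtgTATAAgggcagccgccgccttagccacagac
PRTN3: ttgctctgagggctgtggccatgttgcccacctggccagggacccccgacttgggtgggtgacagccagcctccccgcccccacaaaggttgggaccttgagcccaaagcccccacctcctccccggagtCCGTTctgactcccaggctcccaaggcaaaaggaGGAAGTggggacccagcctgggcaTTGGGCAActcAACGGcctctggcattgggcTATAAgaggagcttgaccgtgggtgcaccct

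Both windows held the 8 letters TTGGGCAA, a match to the C/EBP core searched as TTNNGNAA, and both held the TATA letters TATAA with the first base 31 bases before the start. The C/EBP match began 111 bases before the start of AZU1 and 62 bases before that of PRTN3. PRTN3 also held the PU.1 core GGAAGT, 86 bases before the start, and the MYB core AACGG on each strand, 120 and 51 bases before it. Each motif was searched on both strands, and no 2 of the capitalised matches overlap. Such matches are common: of 35116 RefSeq promoters cut to the same length, 33.2% held the C/EBP core, 19.5% the PU.1 core, 16.5% the MYB core and 18.9% TATAA, while the RUNX core TGTGGT, with no match in either window, was in 11% of promoters. The exact letters TTGGGCAA were in 0.769% of promoters, and TATAA on the gene strand beginning 31 bases before the start was in 0.541%. Those 2 shares were looked up after the shared letters had been seen, and a match is a string of letters, not a measured binding site.

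The 4 marker genes did not contribute alike. In granulocyte-type cells MPO had 94823 UMIs at day 12 and 8973 at day 9, PRTN3 had 96134 and 2990, and AZU1 had 12685 and 567. ELANE had 90 UMIs in 21 of the 427 cells of day 12, with 5 or more in 6 cells and at most 20 in any of them, and 0 UMIs in the 165 cells of day 9. So the cells were chosen in effect on MPO, PRTN3 and AZU1, and neutrophil elastase, the other marker, was nearly absent. ELANE made up 0.0442% of the summed azurophil UMIs at day 12, beside 46.5% for MPO, 47.2% for PRTN3 and 6.23% for AZU1. CFD, next to ELANE on the other side, reached, on the counts-per-million scale (CPM), 75.8 CPM in granulocyte-type cells of day 12 and 22.3 CPM in those of day 9.

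The median granulocyte-type cell held 404 azurophil UMIs at day 12 and 26 at day 9. The middle of the day 12 cells, between the first and the third quartile, lay from 117 to 760 UMIs and the highest cell held 2051. The same quartiles at day 9 were 14 and 86 UMIs, with a highest cell of 931. At least 100 azurophil UMIs were held by 325 cells (76.1%) at day 12 and by 32 cells (19.4%) at day 9. Depth did not rise with it, as the median cell had 19753 UMIs in all at day 12 and 31481 at day 9. Azurophil UMIs took 2.22% of all UMIs in these cells at day 12 and 0.220% at day 9. These values chose the cells and are given as a description.

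**Figure D1:**
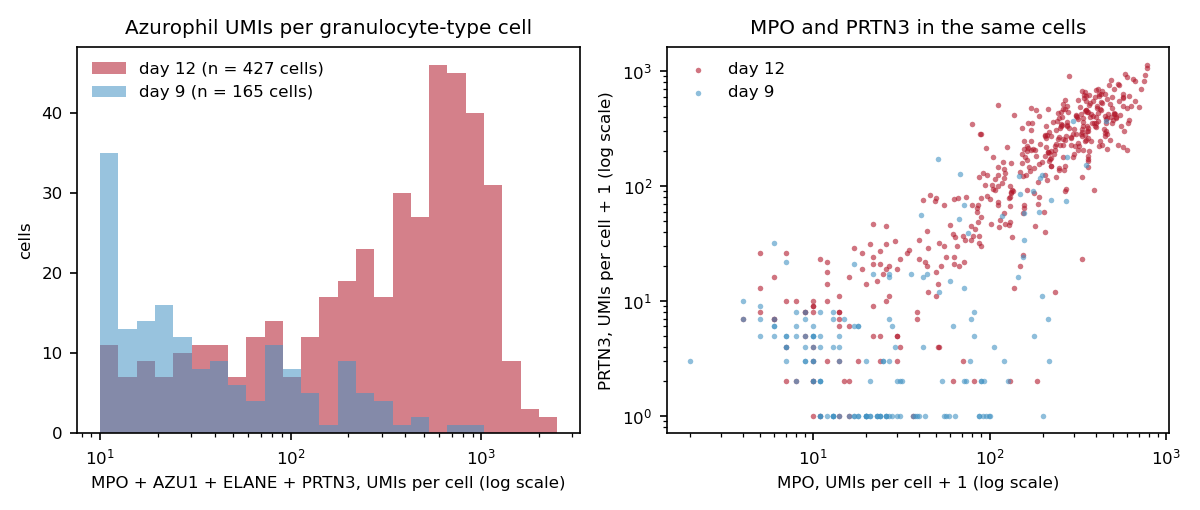
Left, the number of granulocyte-type cells by summed UMIs of MPO, AZU1, ELANE and PRTN3 per cell (log scale) at day 12 (427 cells) and day 9 (165 cells). Right, UMIs plus 1 of PRTN3 against MPO in the same cells (log scales, each dot a cell). Most day 12 cells lie above 100 azurophil UMIs with MPO and PRTN3 high together, whereas day 9 cells crowd near the lower limit of 10 and many have no PRTN3.

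The balance of the 4 genes differed between the days. At day 9 MPO gave 71.6% of the azurophil UMIs and was the highest of the 4 genes in 152 of 165 cells, and 39 cells held MPO alone. At day 12 MPO was highest in 257 cells and PRTN3 in 169 of 427, and 3 cells held MPO alone. PRTN3 was detected in 422 cells (98.8%) at day 12 and 115 (69.7%) at day 9, and AZU1 in 396 cells (92.7%) at day 12 and 88 (53.3%) at day 9. MPO, PRTN3 and AZU1 were all detected in 394 cells at day 12 and 77 at day 9. Across cells, the rank correlation of MPO and PRTN3 was 0.878 at day 12 (n = 427 cells) and 0.153 at day 9 (n = 165), and that of AZU1 and PRTN3 was 0.880 and 0.593. MPO, PRTN3 and AZU1 chose the cells, so these correlations are a description. These cells share a library and differ in depth, and azurophil UMIs themselves correlated with depth at 0.440 at day 12 and 0.0243 at day 9.

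Free RNA in droplets gives UMIs to cells that do not express a gene, so detection was set beside that in cells of another type. Collagen-rich cells, with at least 100 collagen UMIs and no UMI of PTPRC, should lack these genes. At day 12, 29.8% of them had a UMI of MPO and 24.5% one of PRTN3, at a median of 15036 UMIs per cell. The shares were 100% and 99% in granulocyte-type cells at a median of 19845 (400 cells sampled per class). With each cell thinned to 3000 UMIs, MPO was detected in 98.0% of granulocyte-type cells and 6.77% of collagen-rich cells at day 12, PRTN3 in 93.1% and 5.51%, AZU1 in 79.3% and 1.25%, CTSG in 23.8% and 0.251%, and DEFA3 in 52.4% and 5.01%. At day 9 the thinned shares were 81.8% of granulocyte-type and 2.5% of collagen-rich cells for MPO, 29.7% and 0.5% for PRTN3, and 18.2% and 1% for AZU1. MPO, PRTN3 and AZU1 chose the cells, so their shares are a description, and CTSG and DEFA3 are the genes here that the rule did not use.

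The limit of 10 UMIs cut a different population on each day. At day 12, 15 cells lay just inside it (10 to 14 azurophil UMIs) and 59 just outside (5 to 9), and those inside had 9375 CPM of S100A8 and 72.5 CPM of the embryonic globin HBZ, beside 2623 and 8304 CPM outside. At day 9, 42 cells lay just inside and 164 just outside, and the 2 sets were closer, with 120 and 93.7 CPM of S100A8, 110 and 82.1 CPM of LYZ, and 1710 and 2062 CPM of HBZ. At day 9 the share therefore rested on the limit, at 0.878% with a limit of 20 UMIs and 2.81% with a limit of 5. The upper limits on other markers set aside 3 cells of day 9 (HDC, CPA3 and CLC) and, at day 12, 120 cells by HDC, CPA3 and CLC, 48 by macrophage genes and 5 by both. No barcode was shared between granulocyte-type cells of the 2 days, against 17 to 24 shared barcodes between whole libraries. Scrublet called 39 of the day 12 cells (9.13%) and 3 of the day 9 cells (1.82%) doublets, beside 4.64% and 3.71% of all cells at those days, and without them the shares were 5.11% and 1.43%.

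Granule proteins that took no part in the choice were also abundant, and defensins were among the largest differences between the days. CPM below are the gene's part of all UMIs summed over the granulocyte-type cells of a library, and "higher" or "lower" means at least 4-fold at 50 CPM or more in the higher sum, with no test behind it. DEFA3 and DEFA4 encode small pore-forming antimicrobial peptides of azurophil granules. DEFA3 had 5953 CPM at day 12 and 0 UMIs at day 9, at least 11308-fold higher against a floor of 3 counts over the day 9 cells. Its copy DEFA1, nearly identical in sequence, had 2.5 CPM at day 12, and how reads were divided between the copies is uncertain. DEFA4 had 2193 CPM at day 12 and 26.5 CPM at day 9, 82.8-fold higher (exact Poisson interval 70.5 to 97.8). CTSG had 121 and 4.04 CPM, 30.1-fold higher (19.9 to 47.6). BPI, which binds bacterial lipopolysaccharide, had 585 CPM at day 12 and 38.1 CPM at day 9.

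LYZ, the enzyme lysozyme that cleaves bacterial cell walls, had 3725 CPM at day 12 and 871 CPM at day 9. SRGN (serglycin), the proteoglycan on which granule proteases are packed, had 4800 CPM at day 12 and 804 CPM at day 9. CST7 (cystatin F), an inhibitor of the cathepsins that process granule proteases, had 390 CPM at day 12 and 5.79 CPM at day 9. The protease PRSS57 reached 196 CPM at day 12 and 27.6 CPM at day 9, and MS4A3, a membrane protein of granulocyte and monocyte progenitors, 428 and 58.8 CPM. Of 18 azurophil genes, 13 could be compared between the days and 11 were higher at day 12, with 0 lower and a median log2 difference of 2.83. Over all 4685 genes compared, 104 (2.22%) were higher, 91 (1.94%) were lower and the median was -0.12. MPO, PRTN3, AZU1 and the other genes of the rule were left out of these counts and of those between classes.

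Of 14 genes for processing and sorting granule proteins, 1 was higher at day 12 and 0 lower (median log2 difference 0.20). CTSC, the peptidase that activates granule serine proteases by trimming their ends, had 369 CPM in granulocyte-type cells of day 12 and 241 CPM in those of day 9. LYST, whose loss gives giant granules in Chediak-Higashi syndrome, had 752 and 200 CPM. ALAS1, the first enzyme of the haem synthesis that MPO needs, had 284 and 121 CPM, while 0 of 3 haem synthesis genes compared passed 4-fold and their median log2 difference was -0.45. Of 8 protease inhibitors compared, 4 were higher at day 12 and 0 lower. SERPINB1, a cytosolic inhibitor of neutrophil proteases, stood at 519.5 CPM at day 12 and 126 CPM at day 9.

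Specific granule genes had few UMIs even at day 12. LTF (lactoferrin) had 25.2 CPM in granulocyte-type cells of day 12 and 1.9 CPM in those of day 9. LCN2 had 1.6 CPM at both days, CAMP 1.3 and 0.2 CPM, and the collagenase MMP8 0 UMIs. Among those with a higher level were OLFM4 (66.8 CPM at day 12 and 2.3 CPM at day 9, 29.3-fold higher), ARG1, an arginase stored in human neutrophil granules (90.4 and 0.7 CPM, 129-fold higher with an interval of 50.1 to 474) and CEACAM8 (32.7 CPM at day 12 and 0 UMIs at day 9). Of 6 specific granule genes compared, 5 were higher at day 12, and MMP9 was lower at 11.7 CPM against 57.9 CPM at day 9. MMP9 stood at 609 CPM in macrophage-marker cells of day 12, which hold at least 5 UMIs of the macrophage genes.

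Markers of mature neutrophils and of monocytes were both present. S100A8 and S100A9, the calcium-binding subunits of calprotectin, had 6280 and 10615 CPM in granulocyte-type cells of day 12, and 1289 and 2980 CPM in those of day 9. PADI4, which citrullinates histones in neutrophils, had 637 CPM at day 12 and 185 CPM at day 9, and CSF3R, the receptor for granulocyte colony-stimulating factor, 289 and 62.3 CPM. Receptors of mature neutrophils were low, with 36.6 and 0.5 CPM of FCGR3B, 13.3 and 1.6 CPM of CXCR2, and 0.4 CPM and 0 UMIs of CXCR1. Of the monocyte list, MNDA had 717 CPM at day 12 and 37.7 CPM at day 9, FCN1 (ficolin 1) 449 and 89.5 CPM, and CSF1R, the receptor for macrophage colony-stimulating factor, 35.7 and 71.8 CPM. Of 8 monocyte genes compared 4 were higher at day 12, as were 3 of 5 mature neutrophil genes, with 0 lower in either list. The lists share S100A9, so these counts are not separate. The cells were chosen on granule genes, so the granulocyte label is a name, and CSF3R and genes of the monocyte list stood beside those genes.

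The transcription factors of this branch were read at modest levels and 0 of 10 passed the 4-fold limit between the days (median log2 difference 0.77). GFI1, a repressor needed for neutrophil development, had 38.6 CPM in granulocyte-type cells of day 12 and 13.2 CPM in those of day 9. CEBPE, which drives the step to later granules, had 71.1 and 20.2 CPM, and CEBPA, which opens the granulocyte and monocyte programme, 29.5 and 29.3 CPM. SPI1 (PU.1) had 232 and 144 CPM, and IRF8, which favours the monocyte fate, 17.4 and 31.8 CPM. MYB had 130 CPM at day 12 and 38.6 CPM at day 9.

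Some stem cell, erythroid and endothelial genes were lower at day 12. CD34 had 10.9 CPM in granulocyte-type cells of day 12 and 60.4 CPM in those of day 9, MECOM 33.8 and 149 CPM, and GATA2 2.84 and 31.2 CPM. Of 5 stem and progenitor genes compared 3 were lower, as were 4 of 7 erythroid and 2 of 4 endothelial genes. Among the 10 genes furthest down were the endothelial gene ESM1 (3.27 CPM at day 12 and 111 CPM at day 9), the cardiac actin ACTC1 (3.17 and 95.8 CPM) and CCND1, which encodes cyclin D1 (7.1 and 105 CPM). Summed over their lists, erythroid genes had 1250 CPM at day 12 and 4959 CPM at day 9, endothelial genes 344 and 791 CPM, and mesenchyme genes 2526 and 1591 CPM. The count of lower genes depended on which cells entered, with 32 at a limit of 20 azurophil UMIs and 219 without called doublets. The part of RNA from other cells in these differences was not tested.

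**Figure D2:**
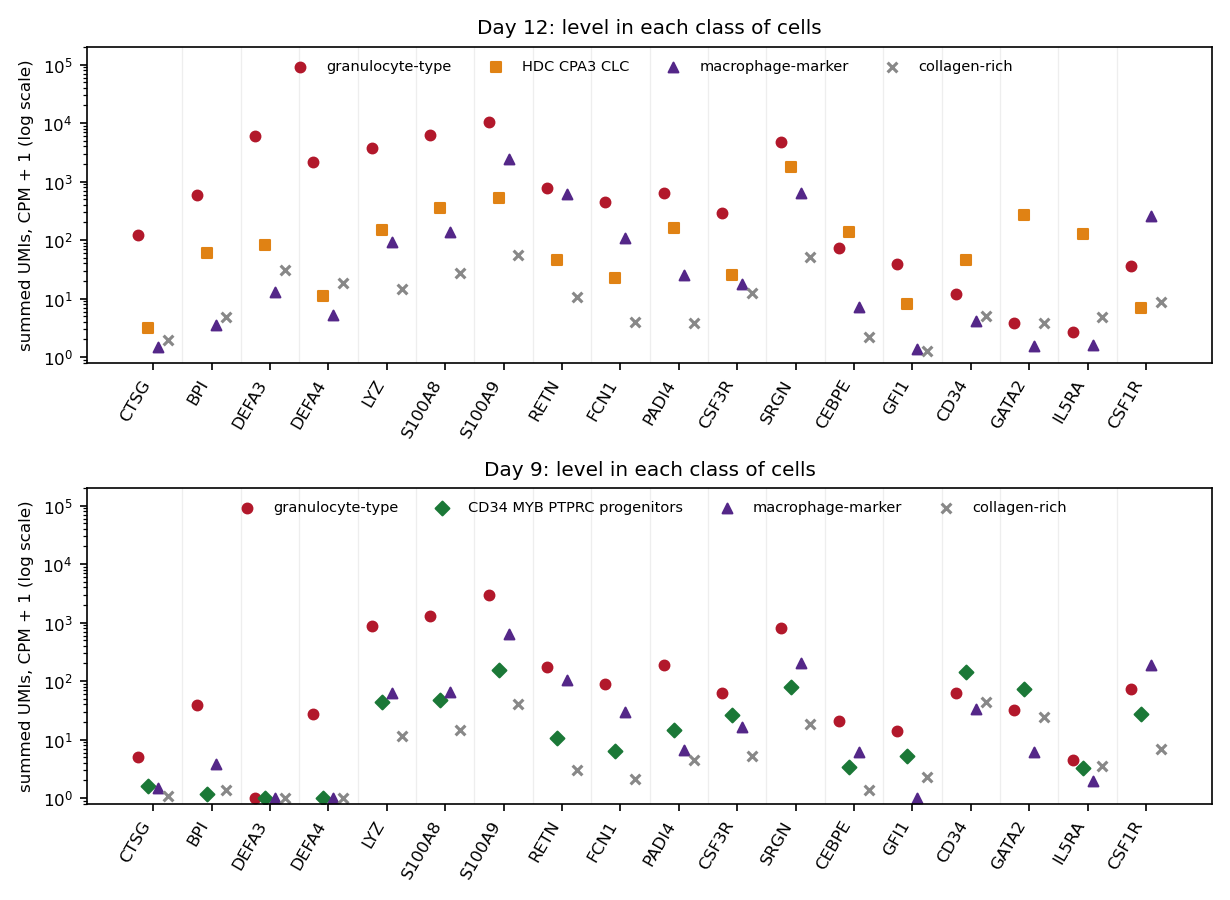
Summed UMIs of 18 genes in each class of cells, in CPM plus 1 (log scale), at day 12 (upper) and day 9 (lower). Granulocyte-type cells are above every other class shown for CTSG, BPI, DEFA3, DEFA4, LYZ, S100A8, S100A9 and SRGN at day 12, while GATA2 and IL5RA are highest in HDC CPA3 CLC cells and CSF1R in macrophage-marker cells.

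Granulocyte-type cells of day 9 were set beside 179 progenitors of the same library, cells with at least 1 UMI each of CD34, MYB and PTPRC that met the other limits but held fewer than 10 azurophil UMIs. Both classes were cut by the rule, so the difference is a description. Of 4558 genes compared, 33 (0.724%) were higher in granulocyte-type cells and 0 were lower. The highest folds belonged to S100A12 (56.7 CPM in granulocyte-type cells and 0.639 CPM in progenitors, 88.8-fold, interval 34.3 to 328) and LRRK2, a kinase abundant in neutrophils and monocytes (62.7 and 1.92 CPM, 32.7-fold, interval 18.5 to 63.9). S100A8 was 27.9-fold higher (24.8 to 31.5) and S100A9 19.6-fold (18.4 to 20.9). LYZ was 20.2-fold higher (17.9 to 22.9), RNASE2 17.9-fold (12.9 to 25.4), MS4A3 16.7-fold (10.9 to 27.1), PADI4 13.4-fold (10.8 to 17) and SRGN 10.2-fold (9.29 to 11.2). RNASE2 encodes a ribonuclease of eosinophil and neutrophil granules.

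By list, 5 of 6 azurophil genes, 4 of 5 mature neutrophil genes, 5 of 7 monocyte genes and 2 of 4 subunits of the NADPH oxidase were higher in granulocyte-type cells of day 9 than in progenitors, with 0 lower in these lists. S100A9 is in both the mature neutrophil and the monocyte list, so the counts of these lists are not separate. The oxidase makes the superoxide from which MPO's substrate derives. None of 8 transcription factors, 24 S phase genes and 32 G2/M genes passed the 4-fold limit, nor did any of 5 stem and progenitor genes, whose median log2 difference was -0.99. CD34 itself had 60.4 CPM in granulocyte-type cells and 143 CPM in progenitors. The library of day 12 held 17 progenitors, and in it 31 of the 33 genes had the same direction and 26 were at least 4-fold higher. These classes were cut by the same rule. The share over all genes of that library was not computed, so the counts have no background to be judged by. A limit of 20 azurophil UMIs for the granulocyte-type cells gave 68 higher and 13 lower genes.

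At day 12 the near neighbours were 139 HDC CPA3 CLC cells, which hold at least 8 UMIs of those genes and fewer than 10 azurophil UMIs. Of 4332 genes compared, 118 (2.72%) were higher in granulocyte-type cells and 78 (1.8%) were lower. DEFA4 (2193 CPM in granulocyte-type cells and 10.2 CPM in HDC CPA3 CLC cells) was 215-fold higher (interval 154 to 310), DEFA3 (5953 and 81.8 CPM) 72.8-fold (64.6 to 82.3), CTSG (121 and 2.10 CPM) 57.7-fold (27.9 to 144) and LYZ (3725 and 147 CPM) 25.3-fold (23.1 to 27.7). RNASE3, HP, the formyl peptide receptor gene FPR2 and SERPINB10 were 26.8- to 32.2-fold higher. Azurophil genes were not all set apart. SRGN had 4800 CPM in granulocyte-type cells and 1799 CPM in HDC CPA3 CLC cells, RNASE2 423 and 305 CPM, CST7 390 and 263 CPM, and PRSS57 196 and 351 CPM, so that 7 of 13 azurophil genes were higher.

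The genes furthest down in granulocyte-type cells of day 12 included genes of the mast cell, basophil and eosinophil branches. GATA2, a factor needed in those lineages, had 2.84 CPM in granulocyte-type cells and 266 CPM in HDC CPA3 CLC cells. IL5RA, the interleukin 5 receptor subunit of eosinophils, had 1.64 and 128 CPM, IL1RL1, the receptor for interleukin 33, 0.655 and 81.8 CPM, and HPGDS, which makes prostaglandin D2, 3.93 and 138 CPM. All 7 mast list genes compared were lower, with a median log2 difference of -4.09; HDC, CPA3 and CLC, genes of the rule, are not among them. CEBPE was shared, at 71.1 CPM in granulocyte-type cells and 137 CPM in HDC CPA3 CLC cells. In the 8 such cells of day 9, 81 of the 118 genes and 66 of the 78 had the same direction, and 17 and 28 of them passed 4-fold. Here too the share over all genes was not computed.

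PRG2, the major basic protein of eosinophil granules, was not part of the rule and stood at 2013 CPM in granulocyte-type cells of day 12 and 828 CPM in those of day 9, beside 34236 CPM in HDC CPA3 CLC cells of day 12. It was concentrated in few cells. At day 12, 32 of 427 cells (7.49%) held at least 100 UMIs of PRG2 and together 90.1% of its UMIs, while the median cell held 2. At day 9, 8 of 165 cells (4.85%) held 81.3%, and the median cell held 1. Beyond these, 115 cells of day 12 passed the azurophil limit and the macrophage limit but not that on HDC, CPA3 and CLC, and they carried both sets of transcripts, with 1934 CPM of MPO, 3557 CPM of PRTN3, 14640 CPM of CLC and 35474 CPM of PRG2.

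Macrophage-marker cells of day 12 (2268 cells) were limited to fewer than 10 azurophil UMIs and fewer than 8 of HDC, CPA3 and CLC, so MPO and PRTN3 are low in them by choice. Of the granule genes outside the rule, DEFA4 had 2193 CPM in granulocyte-type cells and 4.1 CPM in macrophage-marker cells, BPI 585 and 2.5 CPM, and LYZ 3725 and 92.2 CPM. RETN (resistin), a secreted protein of human neutrophils and macrophages, was shared, at 775 CPM in granulocyte-type cells and 601 CPM in macrophage-marker cells. The 16 macrophage markers summed to 257 CPM in granulocyte-type cells and 4742 CPM in macrophage-marker cells, and 5 of them are in the rule.

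The day 12 cells were then ranked by azurophil UMIs per 10000 UMIs and cut into ranges of 142, 142 and 143 cells. These ranges are cuts of a continuous score, and 103 of 427 cells lay within 0.2 log2 units of a cut. Across the low, middle and high ranges, CTSG had 22.1, 106 and 249 CPM and DEFA4 413, 2093 and 4297 CPM, both in the order of the score. S100A8 ran the other way, with 10141, 5290 and 3018 CPM, as did S100A9 with 17262, 8353 and 5601 CPM, LTF with 62.3, 8.75 and 1.40 CPM and OLFM4 with 130, 48.3 and 15.7 CPM. Not all genes of later stages did so, as CSF3R had 217, 297 and 360 CPM and ARG1 96.9, 68.7 and 106 CPM. PADI4 had 863, 778 and 231 CPM and MNDA 871, 726 and 534 CPM, while LYZ had 3988, 4159 and 2963 CPM.

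Some regulators moved with the ranges and others differed less. Across the low, middle and high ranges of day 12, MYB had 45.5, 133 and 221 CPM, GFI1 10.9, 39.5 and 68.8 CPM and CEBPE 40.8, 84.3 and 90.8 CPM. IRF8 had 25.2, 18.1 and 7.68 CPM and CD34 16.8, 13.9 and 1.05 CPM. SPI1 had 264, 211 and 220 CPM, CEBPA 34.9, 27.5 and 25.5 CPM and RUNX1 621, 627 and 652 CPM. The summed S phase genes had 1777, 3001 and 2972 CPM. Median depth was close across the ranges, at 19325, 19932 and 19753 UMIs. Mesenchyme genes moved with the ranges as well, at 4717, 1964 and 674 CPM in sum, and COL1A1 at 1546, 531 and 199 CPM, so collagen RNA was most abundant in the low range. The part of RNA from other cells in these orders was not tested.

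**Figure D3:**
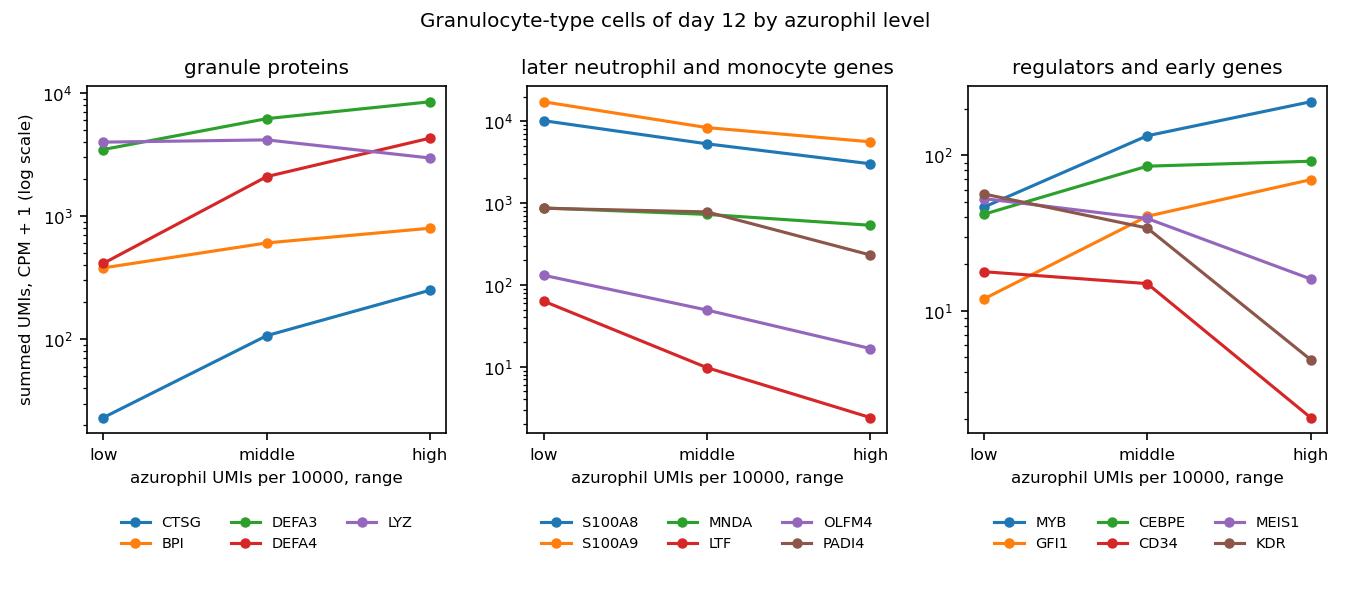
Summed UMIs in CPM plus 1 (log scale) of granule protein genes (left), later neutrophil and monocyte genes (centre) and regulators with early genes (right) in granulocyte-type cells of day 12, cut into low, middle and high ranges of azurophil UMIs per 10000 (142, 142 and 143 cells). CTSG, DEFA4, MYB and GFI1 are highest in the high range, and S100A8, S100A9, LTF, OLFM4 and CD34 in the low range.

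At day 9, in ranges of 55 cells each (23 cells near a cut), S100A8 followed the azurophil score instead, with 212, 1720 and 2574 CPM across the low, middle and high ranges. LYZ did the same with 238, 866 and 1868 CPM, CEBPE with 2.75, 20.9 and 46.8 CPM and SRGN with 194, 554 and 1998 CPM. CD34 ran the other way with 83.3, 56.9 and 27.7 CPM. The low range of day 9 also had the most RNA of other cells, with 8239, 3421 and 1263 CPM of summed erythroid genes and 2521, 1426 and 288 CPM of summed mesenchyme genes, and a median depth of 40432, 24610 and 30624 UMIs. Their part in these orders was not tested.

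Phase calls on cells thinned to 3000 UMIs put 28.4% of granulocyte-type cells of day 12 (interval 24.0 to 33.1%) and 40.6% of those of day 9 (33.0 to 48.5%) in S phase, and 35.0% (30.3 to 40.0%) and 35.8% (28.5 to 43.6%) in G2/M. Of HDC CPA3 CLC cells of day 12, 16.9% were called S and 33.8% G2/M, of macrophage-marker cells 16% and 32.3%, and of collagen-rich cells 2.01% and 4.01%. Of macrophage-marker cells of day 9, 37.5% were called S and 32.8% G2/M, close to the granulocyte-type cells of that day. The day 9 shares were 27.9% and 30.2% of progenitors, 12% and 23.8% of collagen-rich cells, and 50% and 25% of 8 HDC CPA3 CLC cells. MKI67, a protein of dividing cells, had 202, 231 and 185 CPM across the low, middle and high azurophil ranges of day 12. Free RNA enters such calls and its part was not tested.

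In bulk RNA at day 12, the azurophil genes were lower in 3D than in 2D culture. The deposited values are on the transcripts-per-million scale (TPM), which divides each gene by its length. A call here is an adjusted p below 0.05 by limma on log2(TPM + 1) over all 13131 genes tested, of which 1773 (13.5%) were higher and 3313 (25.2%) lower in 3D. The median gene stood at -0.21 on that scale, and with each library scaled by its median ratio to the others 2410 genes were higher and 2616 lower. Fold changes are on the log2(TPM + 1) scale, which understates those of low genes. In bulk, fewer cells of a type and less RNA per cell cannot be told apart.

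MPO had 19.3, 9.87, 29.9 and 17.5 TPM in the 3D libraries, against 144, 118, 228 and 209 TPM in the 2D libraries (log2 difference -3.17, SE 0.31, limma adjusted p = 5.45e-05). The lowest 2D library was above the highest 3D one, but the share of all genes without such overlap was not computed. PRTN3 had 77.5, 13.5, 101 and 54.1 TPM in 3D, against 1601, 994, 2062 and 1897 TPM in 2D (-4.97, SE 0.52, limma adjusted p = 7.61e-05). AZU1 had 8.99, 4.42, 19.8 and 4.60 TPM in 3D, against 321, 280, 468 and 597 TPM in 2D (-5.49, SE 0.41, limma adjusted p = 1.10e-05). Replicate 2 was the lowest 3D library for all 3 genes and replicate 3 the highest. ELANE was listed at 0 in all 4 libraries of 3D, and in 2D at 1.96 TPM in replicate 2 and at 0 in the other 3, so that it was not tested. With no read counts in the table, a listed 0 sets no limit on its level.

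DEFA4 had 14, 3.27, 16 and 7.73 TPM in 3D, against 60.4, 64.4, 105 and 119 TPM in 2D (-3.10, SE 0.42, limma adjusted p = 0.000321). DEFA3 had 68.7, 6.84, 1.81 and 0 TPM in 3D, against 263, 409, 140 and 442 TPM in 2D (-5.52, SE 1.06, limma adjusted p = 0.00248). DEFA1 was highest in replicate 3 of each culture, with 12.7 TPM in 3D and 316 TPM in 2D, and was not called. Since the copies are nearly identical, their sum is the safer value, at 22.5 ± 31.4 TPM in 3D and 395 ± 86.5 TPM in 2D (SD, n = 4 each).

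CTSG had 0.42, 0, 0 and 0 TPM in 3D, against 3.23, 9.81, 10.8 and 11.8 TPM in 2D (-3.06, SE 0.38). BPI had 1.15, 2.62, 2.82 and 4.12 TPM in 3D, against 29.3, 17.1, 21.3 and 23.9 TPM in 2D (-2.74, SE 0.29). PRSS57 had 3.42, 0.37, 3.00 and 2.11 TPM in 3D, against 41.0, 30.1, 44.8 and 40.3 TPM in 2D (-3.75, SE 0.35). All 3 were called lower in 3D, and CTSG passed the 1 TPM filter through its 2D libraries alone. LYZ and RETN, which macrophages also transcribe, fell by 1.85 (SE 0.18) and 1.89 (SE 0.11).

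Of 17 azurophil genes tested, 12 were lower in 3D, 2 higher and 3 not called (DEFA1, RNASE3 and CST7), with a median of -2.49 beside -0.21 over all genes. With the libraries so scaled 11 were lower, since CD63 lost its call (limma adjusted p = 0.296). The higher genes were SRGN, with 265, 300, 333 and 360 TPM in 3D against 164, 148, 165 and 135 TPM in 2D (+1.03, SE 0.12), and RNASE2, with 232, 245, 262 and 237 TPM in 3D against 193, 214, 170 and 196 TPM in 2D (+0.34, SE 0.11, limma adjusted p = 0.0272). SRGN is made by many blood cells, and in the single cells of day 12 it had 4800 CPM in granulocyte-type cells and 628 CPM in macrophage-marker cells. The call of RNASE2 rested on single libraries, with an adjusted p of 0.0633 without 3D replicate 2, 0.0794 without 3D replicate 3, 0.0540 without 2D replicate 1 and 0.0663 without 2D replicate 3 in limma.

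**Figure D4:**
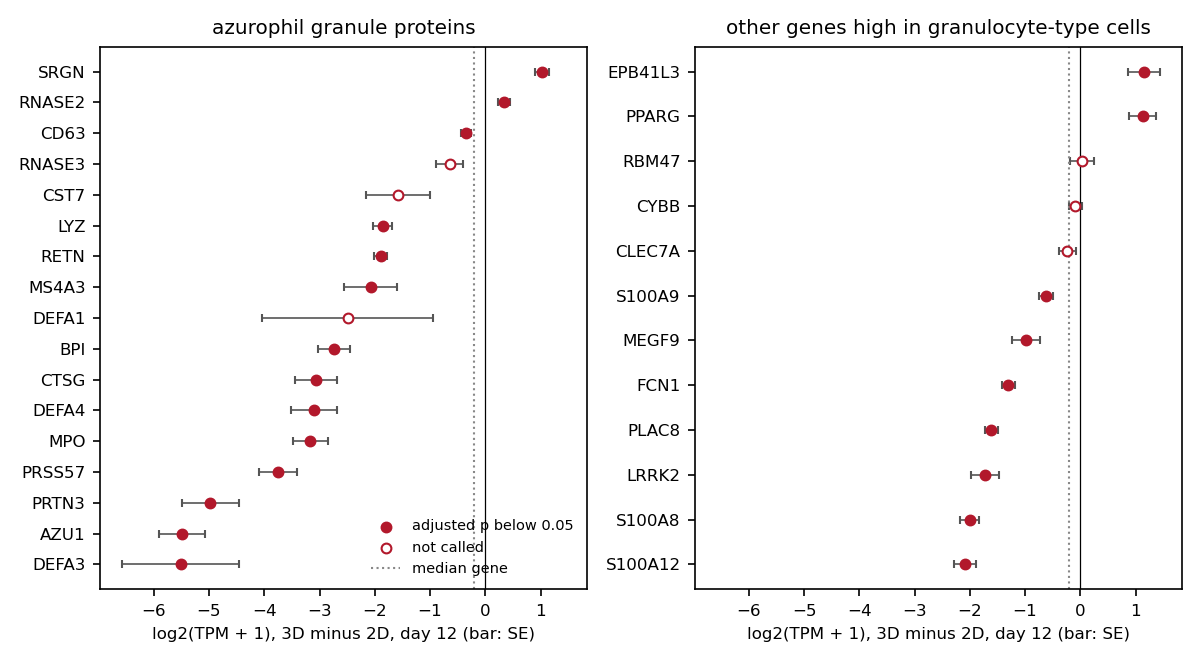
Difference in log2(TPM + 1), 3D minus 2D at day 12 (4 libraries each). Left, azurophil genes. Right, other genes higher in granulocyte-type cells than in progenitors and HDC CPA3 CLC cells, some of them higher still in macrophage-marker cells. Bars are standard errors, filled dots are calls at an adjusted p below 0.05, and the dotted line is the median gene at -0.21. AZU1, PRTN3 and DEFA3 lie near -5, and SRGN, EPB41L3 and PPARG lie near 1.

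Genes of the mature neutrophil and specific granule lists were also lower in 3D. CSF3R had 32.7, 33.5, 22.3 and 18.2 TPM in 3D, against 211, 166, 219 and 166 TPM in 2D (-2.82, SE 0.21, limma adjusted p = 1.00e-05). S100A8 had 476, 312, 255 and 300 TPM in 3D, against 1288, 1143, 1451 and 1385 TPM in 2D (-2.0, SE 0.17), and PADI4 fell by 2.70 (SE 0.28). Of 9 mature neutrophil genes tested 6 were lower and 1 higher, the formyl peptide receptor gene FPR1 (+1.17, SE 0.11). Of 9 specific granule genes 7 were lower, LCN2, HP, ARG1 and MMP9 among them, and PTX3 was higher.

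CEBPE had 3.12, 6.60, 3.76 and 2.72 TPM in 3D, against 21.3, 30.9, 25.4 and 28.1 TPM in 2D (-2.48, SE 0.25), and CEBPA fell by 1.27 (SE 0.19) and CEBPB by 2.40 (SE 0.16). SPI1 had 74.8, 142, 130 and 32.6 TPM in 3D, against 352, 456, 510 and 599 TPM in 2D (-2.51, SE 0.40). Of 13 transcription factors tested 8 were lower in 3D. Of 15 genes for processing and sorting granule proteins 8 were higher and 3 lower in 3D, with CTSC at 461, 499, 537 and 627 TPM in 3D against 237, 279, 254 and 240 TPM in 2D (+1.06, SE 0.11), and the chaperone CALR at -2.31 (SE 0.30). Of 16 macrophage markers, 10 were higher and 2 lower in 3D. The part of a different mixture of cells in these differences was not tested.

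A set of 14 genes was at least 4-fold higher in granulocyte-type cells than in progenitors at day 9 and than in HDC CPA3 CLC cells at day 12. It comprised LYZ, S100A9, S100A8, RETN, FCN1, LRRK2, S100A12, MEGF9, CYBB, PLAC8, EPB41L3, CLEC7A, RBM47 and PPARG. In bulk 9 of the 14 were lower in 3D than in 2D and 2 were higher, EPB41L3 (+1.16, SE 0.28) and PPARG (+1.13, SE 0.25). CYBB, the catalytic subunit of the NADPH oxidase, CLEC7A and RBM47 were not called, with CYBB at 76.0 TPM on average in 3D and 81.2 TPM in 2D (difference -0.09, 95% interval -0.35 to 0.17). The choice did not ask for absence from macrophages, and RBM47 had 124 CPM in granulocyte-type cells and 653 CPM in macrophage-marker cells of day 9. At day 12 RBM47, EPB41L3, CLEC7A and CYBB had 214, 81.9, 54.9 and 359 CPM in granulocyte-type cells. In macrophage-marker cells of that day they had 782, 241, 159 and 461 CPM. The rest of the set had more CPM in granulocyte-type cells than in macrophage-marker cells of day 12. For RETN (775 and 601 CPM), PPARG (268 and 82.6 CPM) and LRRK2 (116 and 33.5 CPM) the difference was under 4-fold.

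In 3D culture after day 12 several azurophil genes were listed at 0. MPO, PRTN3, DEFA4, DEFA1, DEFA3 and ELANE were listed at 0 in all 18 libraries of days 16, 19 and 23, with and without FBS. AZU1 ranged from 0 to 5.02 TPM in them, with a median of 0.8 and 4 libraries at 0. In the 6 libraries labelled SP6A, SP14 and E. coli, MPO ranged from 0 to 1.05 TPM and PRTN3 from 0 to 0.69 TPM. These zeros, too, set no limit on the level. The E. coli libraries correlated with each other at only 0.657 and had 7954 and 8103 genes at 1 TPM or more.

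**Figure D5:**
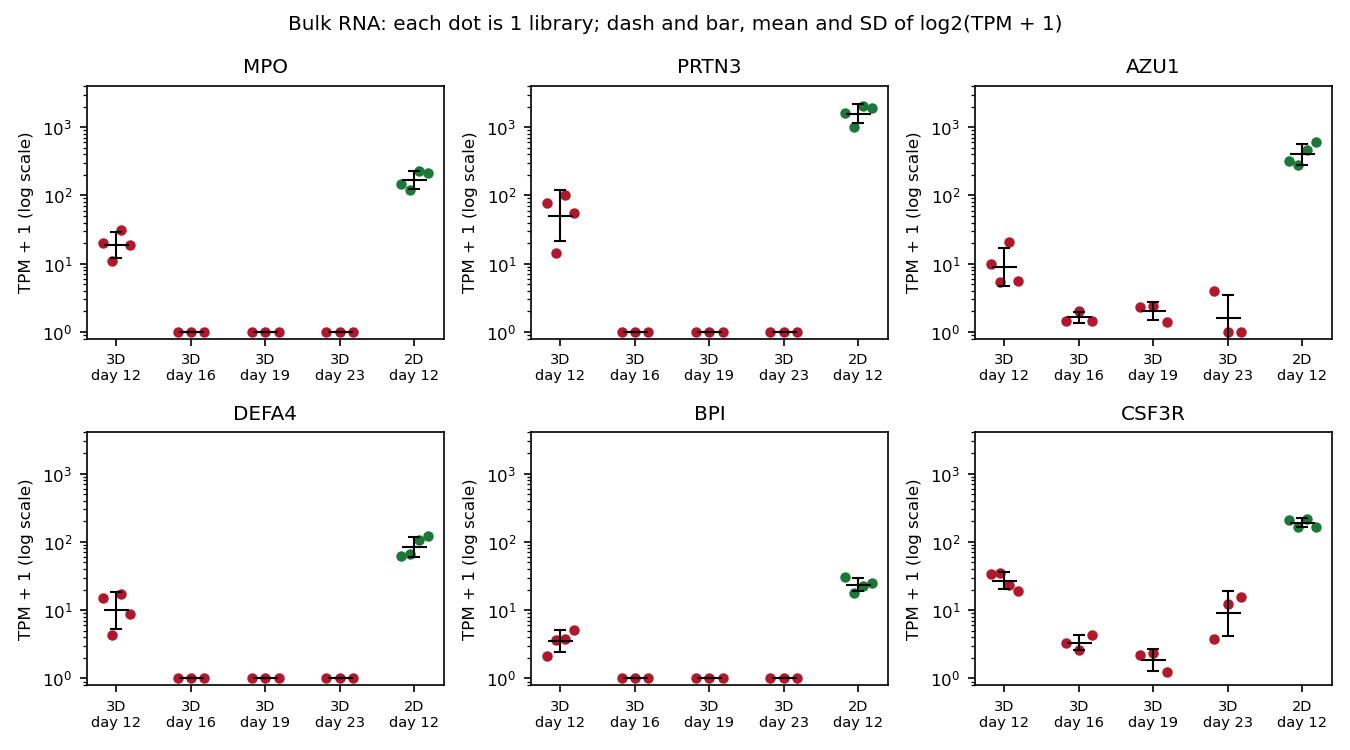
TPM plus 1 (log scale) of MPO, PRTN3, AZU1, DEFA4, BPI and CSF3R in each bulk library of 3D culture at days 12, 16, 19 and 23 without FBS and of 2D culture at day 12. Dots are libraries, and the dash and bar are the mean and SD of log2(TPM + 1). MPO, PRTN3 and DEFA4 are at 0 in every library of days 16, 19 and 23, and all 6 genes are highest in 2D.

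Days 16, 19 and 23 without FBS were each tested against 3D day 12 in limma over 12795 genes, and the 3 comparisons share the day 12 libraries. Higher were 2030 (15.9%), 1286 (10.1%) and 1908 (14.9%) genes, and lower 1432 (11.2%), 1406 (11%) and 2898 (22.6%). The median gene stood at 0.18 at day 16, and scaling by median ratio gave 1426 higher and 1910 lower genes there. Of 13 azurophil genes tested, 8, 7 and 9 were lower than at day 12 and 1, 0 and 2 were higher. MPO, PRTN3, DEFA4 and DEFA3 were at 0 after day 12, so they passed the 1 TPM filter through day 12 alone. Their direction was fixed by that filter, so these counts are a description. RNASE2 averaged 20.4, 31.1 and 28.8 TPM at days 16, 19 and 23 against 244 TPM at day 12 (-3.54, -2.95 and -3.10, all called). LYZ averaged 39.2, 49.0 and 43.4 TPM against 88.9 TPM at day 12, called lower at each day, although the day 19 call was lost without replicate 3 of that day (limma adjusted p = 0.0841).

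RETN, S100A8 and CSF3R followed other courses. RETN averaged 642, 1446 and 7317 TPM at days 16, 19 and 23 against 1798 TPM at day 12, with differences of -1.47 (called), -0.32 (not called) and +2.04 (called). S100A8 differed from day 12 by -4.25 and -4.36 at days 16 and 19 and by +0.10 at day 23, where it was not called, with 312, 339 and 406 TPM in the libraries of that day. CSF3R differed by -3.00, -3.86 and -1.58, all called, but the day 23 call was lost without replicate 1 of that day (limma adjusted p = 0.0596). MPO, PRTN3 and DEFA4 were at 0 in the same day 23 libraries.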

How the data were processed

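The deposited single-cell matrices hold UMI counts of 36601 genes. The file headers name Cell Ranger, 7.0.0 at day 12 and otherwise 7.1.0, and the labels name the build GRCh38. Barcodes numbered 7034, 12891 and 8159 at days 7, 9 and 12, and cells passing the limits had a median of 24562, 13262 and 17097 UMIs. Bulk values are TPM as the authors deposited them, for 58735 genes and 32 libraries. The submitters' processing notes name HISAT2, HTSeq 0.11.1, Trim Galore 0.4.4 and DESeq2 without saying which gave the TPM, and read totals were not at hand. Bulk RNA was extracted with TRIzol and amplified by SMART-seq2, per the labels. Chromatin libraries of the series (8 of accessibility and 11 of immunoprecipitation) were not analysed here.

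UMIs were summed per class and library (Python 3.11.15, scanpy 1.11.5). The design had planned edgeR 4.0.16 on classes with at least 20 cells in each library. Only 1 library had that many of both classes, so classes and days are described by fold, called at 4-fold and 50 CPM, with exact Poisson intervals. Scrublet ran in scanpy with an expected doublet rate of 0.06, and called cells were kept. Bulk groups were tested with limma 3.58.1 (R 4.3.3) on log2(TPM + 1), in genes with a mean of at least 1 TPM and with Benjamini-Hochberg adjustment. Tested on simulated data, limma recovered 61% of genes with a change of 1 log2 unit and 96% at 2 units in the 3D and 2D comparison (12686 genes). Changes were simulated only in genes with a mean log2(TPM + 1) above 4, so recovery of lower genes was not measured. Replicate 2D and 3D libraries of day 12 correlated at 0.928 to 0.956. The lowest correlations at days 16, 19 and 23 were 0.941, 0.920 and 0.917 without FBS, and 0.904, 0.891 and 0.924 with FBS. The SP6A and SP14 pairs correlated at 0.968 and 0.966, and the E. coli pair at 0.657. No 2 replicates were identical.

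The cells, the 24 gene lists and the tests were chosen with earlier results of these data known. Named genes were the rule's 12 genes, the 12 largest folds per direction and comparison of classes, the 10 largest between days, up to 4 leading genes per list and a fixed set. Alternatives changed thresholds, doublets, scaling, pseudocount, filter, replicates and block. RefSeq promoter sequence was found for 2 of the 4 markers, AZU1 and PRTN3.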

Additional observations from a re-analysis of the deposited data

Results flagged for a closer look

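Among 82 sets of 4 bulk libraries, 11 had 1 library far from the other 3 by Dixon's criterion at 95%. Chance gives that in about 1 of 20 sets of normally distributed values. Where 3 libraries were at 0 any other value was flagged, as for CTSG, CLC, EPX and GFI1. The count of 11 therefore cannot be set against chance. In 3D culture at day 12, replicate 4 stood apart for MS4A3 (5.27 TPM, the others 0.42 to 0.9) and for genes of mast cells, basophils and eosinophils: PRG2 at 131.77 TPM (others 0 to 2.99), CLC at 228.35 TPM (others at 0), EPX at 6.37 TPM (others at 0) and HDC at 3.61 TPM (others 0 to 0.22). MPO in that library was 17.5 TPM, inside the range of the other 3. Replicate 1 of 3D was high for DEFA3 (68.7 TPM, others 0 to 6.84) and CTSG (0.42 TPM, others at 0) and low for FCN1 (105.67 TPM, others 127.09 to 130). Replicate 3 of 3D was high for MYB (0.41 TPM, others 0.05 to 0.11) and replicate 2 for GFI1 (0.17 TPM, others at 0). In 2D, replicate 4 was high for CLEC7A (89.82 TPM, others 72.04 to 74.49).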

How the results depend on the processing

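The share of granulocyte-type cells at day 9 was 2.81% with a limit of 5 azurophil UMIs, 0.878% with 20 and 0.733% with 10 per 10000 UMIs, and at day 12 it was 6.10% with 5. Against progenitors, 20 UMIs gave 68 higher and 13 lower genes, and a limit of 3 azurophil UMIs in the progenitors gave 4 lower. Between days, 20 UMIs gave 32 lower genes and leaving out doublets 219. Planned edgeR and DESeq2 fits with a least class size of 20 cells were not run, as 1 library alone qualified. With 8 cells, an added choice, edgeR gave 18 higher and 0 lower genes against progenitors (0 to 399 and 0 to 175 over its alternatives), with 1141 genes at an unadjusted p below 0.05, and DESeq2 called 159 and 64. Against HDC CPA3 CLC cells it gave 277 and 166 (0 to 277 and 0 to 179). For 3D against 2D, leaving out 1 library gave 1394 to 1683 higher and 2930 to 3148 lower genes. Against day 12 it gave 1440 to 2153 and 1161 to 1497 at day 16, 971 to 1319 and 1074 to 1452 at day 19, and 1593 to 1995 and 2443 to 3007 at day 23. Of 107 named genes in 3D against 2D, scaling by median ratio left 101 calls as they were, a pseudocount of 0.1 all 107 and no filter 102, and 0 turned round under any setting. Same-numbered replicates did not deviate together (correlations -0.00803 to 0.0352 in 3D and 2D, -0.123 to 0.0520 among days). A replicate block gave 1608 higher and 3021 lower genes for 3D against 2D, 1605 and 1324 at day 16, 1037 and 1270 at day 19, and 1650 and 2573 at day 23, and in limma RNASE2 (adjusted p 0.0688) and LYZ at day 19 (0.0777) lost their calls, while DEFA1 (0.0241), RNASE3 (0.0367) and CST7 (0.0230) gained one in 3D against 2D, as did DEFA3 at days 16 (0.0112) and 19 (0.0138). Libraries that hold few cells of a class limit every comparison of classes, and depth of the bulk libraries is unknown.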

Other observations

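Genes of the fetal programme were measured in granulocyte-type cells at both days. LIN28B, an RNA-binding protein of embryonic and fetal cells, had 141 CPM in granulocyte-type cells of day 12 and 157 CPM in those of day 9, IGF2BP3 243 and 211 CPM, and HMGA2 55.9 and 127 CPM. Of 7 such genes compared, 0 passed 4-fold between the days. NCL, a nucleolar protein of ribosome assembly, had 539 CPM at day 12 and 1297 CPM at day 9, and NPM1 889 and 1617 CPM, and 0 of 13 ribosome biogenesis genes passed 4-fold (median log2 difference -0.82).

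Genes of antigen presentation were scarce, in granulocyte-type cells and in other classes. The 10 summed HLA class II genes had 59.6 CPM in granulocyte-type cells of day 12 and 81.8 CPM in those of day 9. At day 12 the same sum was 65.2 CPM in HDC CPA3 CLC cells, 61.3 CPM in collagen-rich cells and 133 CPM in macrophage-marker cells. CSF2RB, the shared receptor subunit for interleukins 3 and 5, had 33.0 CPM in granulocyte-type cells of day 12 and 278 CPM in HDC CPA3 CLC cells. CSF3R had 289 CPM in granulocyte-type cells of day 12, 24.0 CPM in HDC CPA3 CLC cells and 17 CPM in macrophage-marker cells. CYBB, of the NADPH oxidase, had 359 CPM in granulocyte-type cells of day 12 and 461 CPM in macrophage-marker cells. NKG7, a granule protein of cytotoxic lymphocytes, had 290 CPM in granulocyte-type cells of day 12 and 41.0 CPM in macrophage-marker cells, while CD3D had 0.76 and 0.66 CPM. The megakaryocyte gene PPBP had 197 CPM in granulocyte-type cells of day 12 and 88.1 CPM in those of day 9, and PF4 99.0 and 109 CPM.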
